A study of Mus musculus with 6 samples.

Results

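The 10 genes described here encode amino acid transporters of pancreatic alpha cells, for cationic amino acids, glutamine and large neutral amino acids. They are Slc38a5, Slc7a2, Slc38a4, Slc38a2, Slc38a1, Slc7a8, Slc7a5, Slc3a2, Slc1a5 and Slc7a14, chosen by name out of the 55536 genes of the count table, and all 10 passed the filter on low counts. RNA came from whole pancreatic islets of C57B1/6J (as labelled) mice of 2 genotypes, with 3 libraries each. Control mice were Klf4+/+;Gcg-iCre and knockout mice Klf4fl/fl;Gcg-iCre, so both groups carried the Gcg-iCre transgene, which expresses Cre recombinase under glucagon gene control and thus acts in alpha cells. KLF4 is a zinc finger transcription factor, and the study asked which genes it regulates in alpha cells. The labels used here give no age or sex and do not say whether animals were pooled or whether each library came from a separate animal. The p-values below therefore measure the spread between these libraries, which may be technical.

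Alpha cells secrete glucagon, and amino acids are among the signals that make them do so. Glucagon in turn drives amino acid breakdown in the liver, and when its action is blocked amino acids rise in blood and alpha cells multiply. Transporters set how much arginine, glutamine and leucine the cell takes up, and thus how strongly the amino acid sensor mTORC1 is engaged. Slc38a5 is known as a glutamine transporter gene that alpha cells induce in that setting, and Slc7a2 as the gene of their main arginine transporter.

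Libraries held 101277200 to 110243918 counts. The defining alpha, beta and delta cell markers were present in every library, with Gcg at 2855552 to 5636518 normalized counts (counts divided by each library's size factor). Klf4 itself did not separate the genotypes, at 2681 ± 592 and 2386 ± 137 normalized counts (SD, n = 3 each, DESeq2 adjusted p = 0.774). All 3 control libraries carried Xist and no counts of the Y-linked Ddx3y, Uty, Kdm5d and Eif2s3y, and all 3 knockout libraries carried those 4 genes and at most 30 normalized counts of Xist. In every comparison below, sex cannot be told apart from genotype. Summed over 16 hepatocyte markers, knockout replicate 1 stood apart at 126317 normalized counts and knockout replicate 2 at 7031, against 2556 in knockout replicate 3 and 2335 to 3533 in controls. In whole islets, fewer alpha cells and less RNA per alpha cell cannot be told apart.

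Of the 10 transporter genes, Slc38a5 fell and Slc38a4 and Slc7a5 rose in knockout islets, and the other 7 did not pass the threshold. A gene passed when its DESeq2 p, adjusted by Benjamini-Hochberg over all genes, was under 0.05. This held for 2.19% of the 17797 genes given an adjusted p, 1.53% in the higher and 0.657% in the lower direction, against 3 of 10 here, 2 higher and 1 lower. The median log2 fold change of knockout against control was 0.12 for the 10 genes and -0.0066 for the 15811 genes with a mean of at least 50 normalized counts. Control and knockout libraries were fully separated in 4 of the 10, the 3 named and Slc7a14, and in 18.0% of those 15811 genes. With the quasi-likelihood test of edgeR, 0 of the 10 passed, the lowest adjusted p being 0.210, and 0.115% of all genes did. In simulated data both tools made more false calls than the threshold allows, DESeq2 more than edgeR. Before adjustment, p lay under 0.05 for 3 of the 10 with edgeR and for 4 with DESeq2, against 9.48% and 9.03% of all genes.

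**Figure D1:**
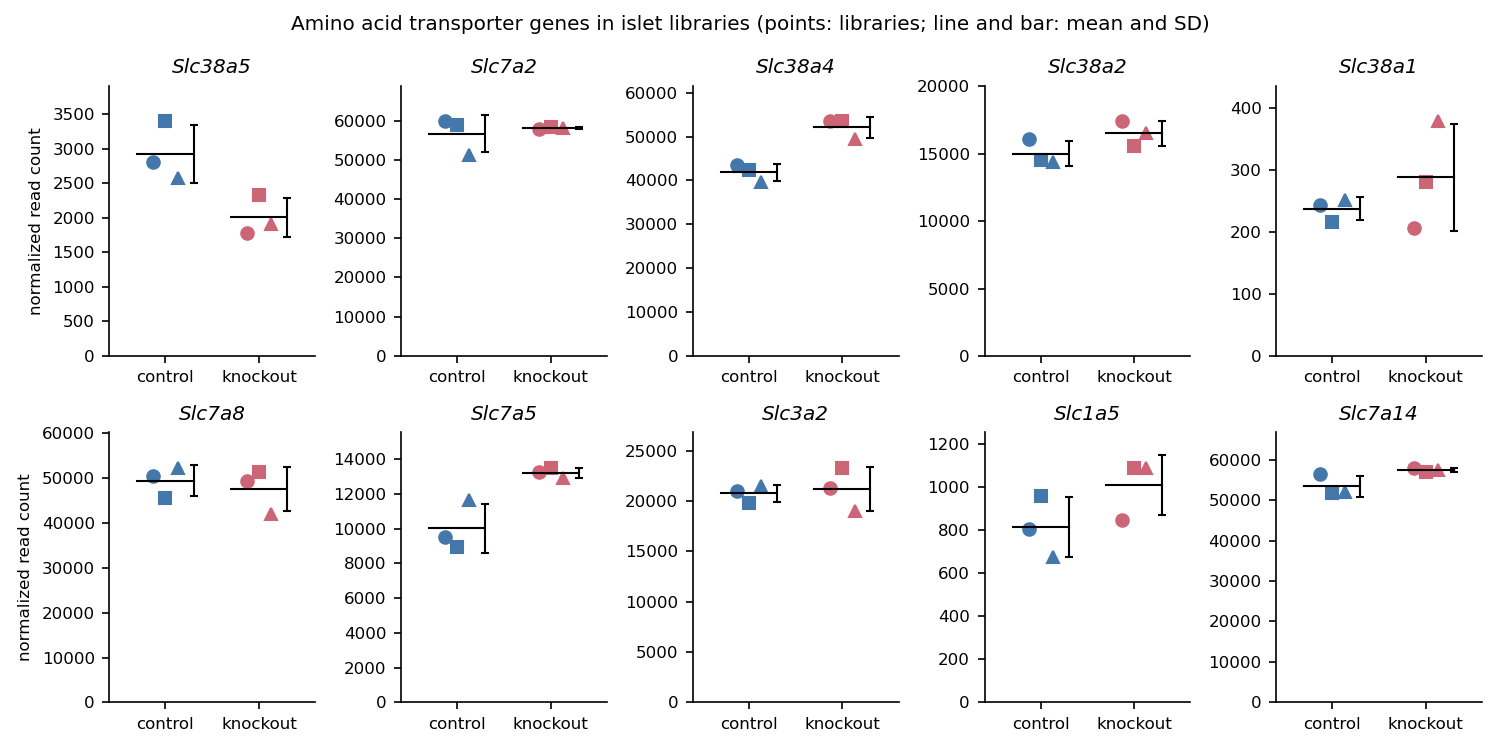
Normalized read count of each transporter gene (vertical axis from 0) in 3 control and 3 knockout libraries; points are libraries, lines group means and bars SDs. Slc38a5 lies lower in all 3 knockout libraries than in any control, and Slc38a4 and Slc7a5 lie higher.

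The system A and system N transporters carry glutamine and other small neutral amino acids with sodium. Slc38a5 (ENSMUSG00000031170, chromosome X, 8271133 to 8280179, plus strand, GRCm38) encodes SNAT5. Its normalized counts were 2808, 3402 and 2585 in control replicates 1 to 3 and 1783, 2328 and 1913 in knockout replicates 1 to 3. Every knockout library lay below every control, and the highest knockout value was close to the lowest control value. The log2 fold change was -0.55 ± 0.13 (SE, DESeq2 adjusted p = 0.00441), a change of -31.5% with a 95% confidence interval from -42.8% to -18.0%. In edgeR the same difference had an adjusted p of 0.218. Because the gene is X-linked, it was also fitted with autosomal genes alone as company, which left the DESeq2 value at -0.55. That fit kept the gene's own counts, so it cannot test an effect of sex. For Slc38a5 too, sex could not be separated from genotype. Without control replicate 2, knockout replicate 1 or knockout replicate 3, the log2 fold change was -0.43, -0.47 or -0.51 and the DESeq2 adjusted p 0.0943, 0.150 or 0.0823.

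Slc38a4 (ENSMUSG00000022464, chromosome 15, 96994820 to 97055956, minus strand) encodes SNAT4, which carries neutral and also cationic amino acids and is abundant in liver. Its normalized counts were 43475, 42281 and 39695 in controls and 53489, 53452 and 49409 in knockouts, replicates 1 to 3 in order. The groups were well apart, and within each group the values were close to each other. The log2 fold change was 0.32 ± 0.07 (SE, DESeq2 adjusted p = 0.00121), an increase of 24.6% with a 95% confidence interval from 13.3% to 37.1%. The edgeR adjusted p was 0.210, and without knockout replicate 1 the log2 fold change was 0.30 with a DESeq2 adjusted p of 0.0582. Knockout replicate 3, whose hepatocyte markers summed to a value within the control range, also lay above every control, and against the 3 controls alone it gave 0.24 (adjusted p = 1.00).

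The stretches before the start sites of these SNAT genes are shown because they moved in opposite directions and RefSeq gives their start sites on GRCm38.p6. Of the 10 genes, 6 had a promoter entry in the RefSeq table used, and Slc7a5 was not among them. The 250 bases before each start were searched on both strands for GGGNGTG, a core of KLF binding sites, for TNAAGTG, a core of NKX2 binding sites, and for TGATGNAA, the core shared by C/EBP-ATF response elements. These motifs matched 26.1%, 10.1% and 3.45% of the 32851 promoter windows in the table, respectively. Matches are in capitals, all sequences run 5′ to 3′ on the gene's strand, and only the part outside annotated exons is printed. The first line lies at chrX:8271261-8271380 (plus strand), the second at chr15:97055957-97056206 and the third at chr15:97031214-97031463 (both minus strand).
Slc38a5: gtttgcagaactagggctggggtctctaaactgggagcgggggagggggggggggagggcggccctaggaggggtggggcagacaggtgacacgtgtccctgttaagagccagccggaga
Slc38a4, first start: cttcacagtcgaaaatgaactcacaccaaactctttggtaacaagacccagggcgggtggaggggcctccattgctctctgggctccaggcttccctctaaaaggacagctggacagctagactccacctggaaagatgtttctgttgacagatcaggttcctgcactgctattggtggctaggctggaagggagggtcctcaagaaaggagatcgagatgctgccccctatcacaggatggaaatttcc
Slc38a4, second start: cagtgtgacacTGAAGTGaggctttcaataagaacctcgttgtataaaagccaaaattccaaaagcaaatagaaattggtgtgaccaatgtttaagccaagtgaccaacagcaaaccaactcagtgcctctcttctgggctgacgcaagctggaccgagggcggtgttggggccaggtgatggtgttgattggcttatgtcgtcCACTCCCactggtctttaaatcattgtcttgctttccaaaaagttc
The second Slc38a4 window held 1 match to the NKX2-type motif and 1 to the KLF-type motif on the opposite strand, and the windows of Slc38a5 and of the first and the third Slc38a4 start held none of the 3 motifs. Slc7a14, which did not pass, had 2 KLF-type matches, and the windows of Slc38a2, Slc7a8 and Slc3a2 held none. Gene counts do not show which start was used, and no binding data were analysed here.

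Slc38a2 and Slc38a1 encode SNAT2, which many cells induce when amino acids are scarce, and its close relative SNAT1. Slc38a2 (ENSMUSG00000022462, chromosome 15, 96687392 to 96699730) had 16107, 14512 and 14421 normalized counts in controls and 17412, 15610 and 16508 in knockouts. The groups overlapped through control replicate 1, and the log2 fold change of 0.14 ± 0.08 (SE) did not pass (DESeq2 adjusted p = 0.530). Slc38a1 (ENSMUSG00000023169, chromosome 15, 96571418 to 96642913) was the scarcest of the 10, with 244, 217 and 252 normalized counts in controls and 206, 281 and 379 in knockouts. Knockout replicate 1 was the lowest and knockout replicate 3 the highest of all 6 libraries, and the 95% confidence interval of its log2 fold change ran from -0.19 to 0.75 (adjusted p = 0.768). The estimate of 0.28 was 0.47 without knockout replicate 1 and 0.031 without knockout replicate 3. Slc38a4, Slc38a2 and Slc38a1 all lie on the minus strand of chromosome 15.

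The large neutral amino acid transporters described here work as pairs of a light chain and the heavy chain CD98. Slc7a5 (ENSMUSG00000040010, chromosome 8, 121881150 to 121907694, minus strand) encodes the light chain LAT1, which exchanges glutamine for leucine and other essential amino acids. Its normalized counts were 9512, 8950 and 11630 in controls and 13249, 13516 and 12920 in knockouts. The knockout values lay close together above every control, while control replicate 3 stood above the other controls. The log2 fold change was 0.40 ± 0.10 (SE, DESeq2 adjusted p = 0.00739), an increase of 31.9% with a 95% confidence interval from 15.0% to 51.3%. The edgeR adjusted p was 0.210. Leaving out any library other than control replicate 3 ended the call, with DESeq2 adjusted p-values of 0.0548 to 0.130 and log2 fold changes of 0.32 to 0.42, and leaving out control replicate 3 gave 0.52 (adjusted p = 7.26e-16).

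The heavy chain and the other light chain among the 10 genes did not pass. Slc3a2 (ENSMUSG00000010095, chromosome 19, 8706882 to 8723369), the CD98 heavy chain, had 20986, 19851 and 21523 normalized counts in controls and 21280, 23311 and 18970 in knockouts, and the knockout libraries spanned the control range on both sides. The DESeq2 estimate was 0.03 ± 0.09 (log2 fold change and SE, adjusted p = 0.965), with a 95% confidence interval from -0.15 to 0.20. Slc7a8 (ENSMUSG00000022180, chromosome 14, 54722209 to 54781946) encodes the light chain LAT2. It had 50354, 45600 and 52291 normalized counts in controls and 49289, 51417 and 41992 in knockouts, or -0.06 ± 0.09 as log2 fold change with SE (DESeq2 adjusted p = 0.926). Its lowest value was in knockout replicate 3, and the other knockout libraries lay within the control range. The ratio of Slc7a5 to Slc3a2, in TPM (counts per exon length, scaled to the same sum in every library), was 0.431, 0.429 and 0.514 in controls and 0.593, 0.552 and 0.648 in knockouts, without overlap. As Slc3a2 moved little (0.03 on the log2 scale), this repeats the separation of Slc7a5 and is no separate result. The ratio of Slc7a8 to Slc3a2 was 1.62 to 1.71 in controls and 1.56 to 1.63 in knockouts.

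The cationic transporter genes were high in both genotypes. Slc7a2 (ENSMUSG00000031596, chromosome 8, 40862396 to 40922308, plus strand) encodes CAT2, which carries arginine, lysine and ornithine. It had 59861, 58895 and 51283 normalized counts in controls and 57785, 58286 and 58142 in knockouts. Control replicate 3 was the lowest of the 6, and the knockout libraries agreed within 0.444% (coefficient of variation) and lay inside the control range. The log2 fold change was 0.03 ± 0.08 (SE, DESeq2 adjusted p = 0.949), with a 95% confidence interval from a change of -7.78% to one of 13.8%. Gene counts do not tell apart the splice forms of CAT2 that differ in arginine affinity.

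Slc7a14 (ENSMUSG00000069072, chromosome 3, 31202858 to 31310378, minus strand) belongs by sequence to the same cationic family. It had 56435, 51745 and 51958 normalized counts in controls and 57986, 56843 and 57411 in knockouts. The groups did not overlap, but control replicate 1 lay just below the knockout libraries, and the log2 fold change of 0.11 ± 0.07 (SE) did not pass (DESeq2 adjusted p = 0.585). Slc1a5 (ENSMUSG00000001918, chromosome 7, 16781340 to 16798274, plus strand) encodes ASCT2, the sodium-dependent exchanger that supplies glutamine to LAT1. It had 806, 958 and 678 normalized counts in controls and 850, 1091 and 1091 in knockouts, with overlap through control replicate 2. Its log2 fold change was 0.31 ± 0.16 (SE, adjusted p = 0.433), with a 95% confidence interval that ran from just above 0 to 0.62, and it was 0.20 without control replicate 3. Slc7a2, Slc7a5 and Slc7a14 each overlap 1 annotated gene on the opposite strand, which held at most 330 normalized counts on average. The strand setting of the counting is not given in the sources used here.

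**Figure D2:**
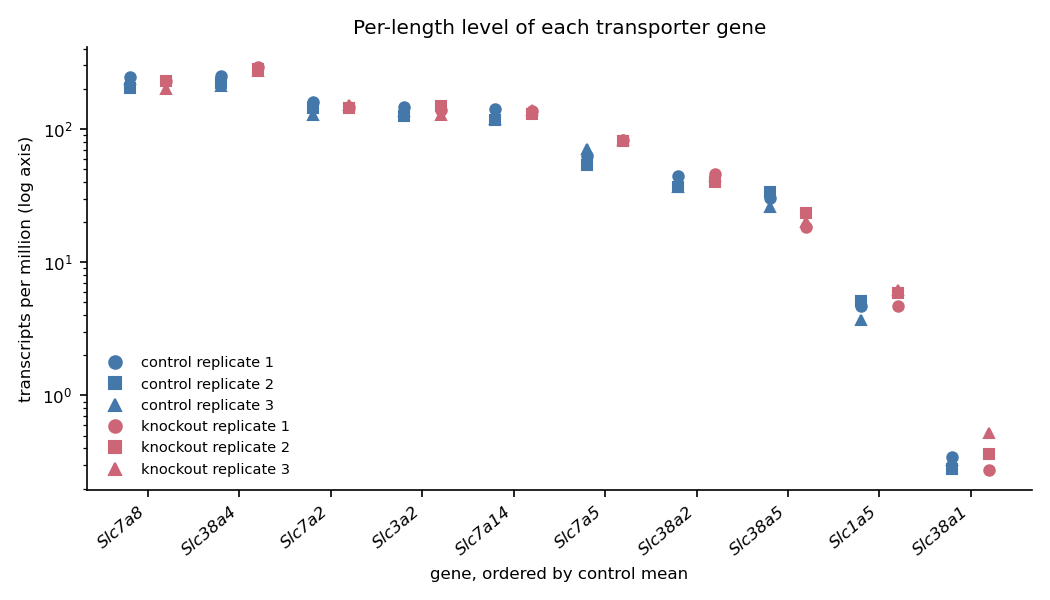
Level of each transporter gene in TPM (log axis) in each library, genes ordered by control mean. Slc7a8 and Slc38a4 lead in controls at 228 and 227 TPM, and Slc38a1 is last at 0.318 TPM.

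On the TPM scale, which divides by the union length of the annotated exons, the control means fell into steps. Slc7a8 (228 ± 22.4 TPM, SD, n = 3) and Slc38a4 (227 ± 20.1) led and overlapped each other. Slc7a2 (143 ± 16.6), Slc3a2 (136 ± 10.1) and Slc7a14 (125 ± 12.7) followed, and neighbours among these 3 also overlapped. Slc7a5 (62.3 ± 8.51), Slc38a2 (39.2 ± 4.50), Slc38a5 (30.1 ± 3.90), Slc1a5 (4.49 ± 0.747) and Slc38a1 (0.318 ± 0.0342) each stood below the one before without overlap of their control libraries. In knockouts Slc38a4 was at 282 ± 8.89 TPM and Slc7a8 at 219 ± 18.4, without overlap, so that Slc38a4 alone held the first place there. The 10 genes made up 60.3% to 63.7% of the summed TPM of 54 amino acid transporter genes in every library. The union length counts exons that a cell may not use, which lowers the TPM of genes with long alternative exons such as Slc38a1, whose union spans 17.2 kb.

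Markers of several cell types moved with the genotype. Of 8 alpha cell markers, 4 fell and none rose. Their mean log2(normalized count + 1) was 13.81 ± 0.17 (SD, n = 3) in controls and 13.49 ± 0.06 (SD, n = 3) in knockouts, a difference of -0.32. Gcg, the glucagon gene, fell by 0.56 ± 0.13 on the log2 scale (SE; adjusted p = 0.00332 in DESeq2 and 0.402 in edgeR), close to the value of Slc38a5. Of 8 mesenchymal markers 5 rose, with sums of 53144 to 69143 normalized counts in controls and 97488 to 104359 in knockouts. The 11 acinar markers, of which 1 rose, summed to 541195 to 1070009 normalized counts in controls and 1353395 to 1920372 in knockouts. Acinar cells are also known to express Slc38a5. Between the genotypes Slc38a5 was lower where the acinar sum was higher, while within each genotype Slc38a5, the acinar sum and the alpha sum were all highest in replicate 2.

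**Figure D3:**
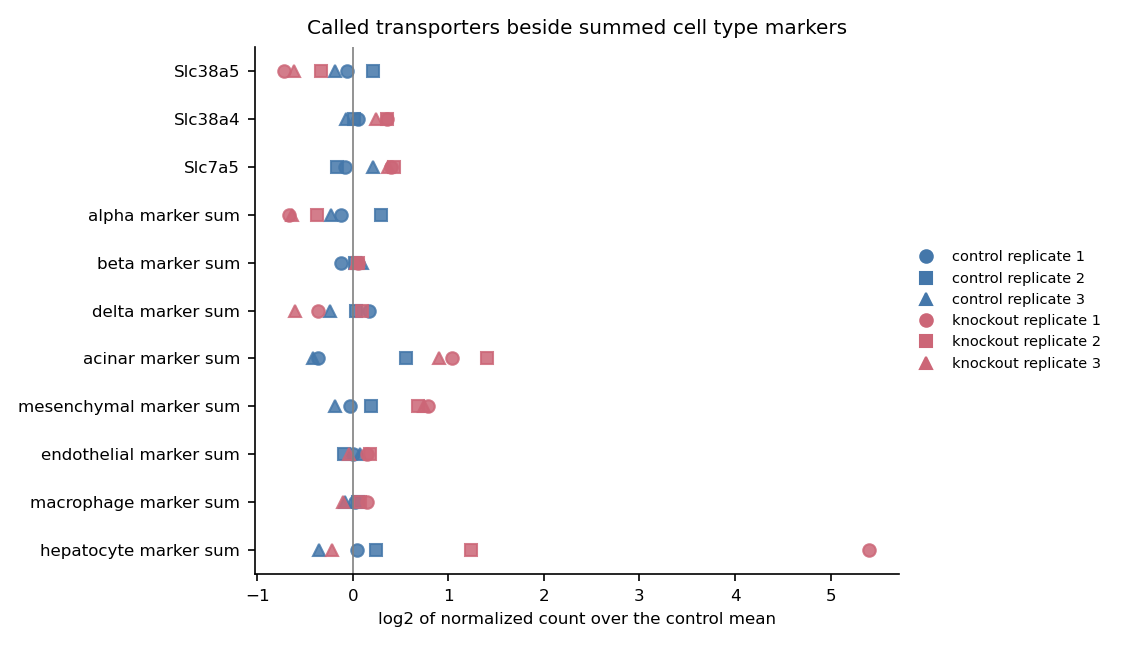
Slc38a5, Slc38a4, Slc7a5 and the summed markers of 8 cell types in each library, as log2 of the normalized count over the control mean. The hepatocyte sum stands out in knockout replicate 1, and the alpha sum lies lower and the acinar and mesenchymal sums higher in all 3 knockout libraries than in any control.

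The sums of the other lists overlapped between the groups except for duct markers. Of 16 hepatocyte markers 9 were given an adjusted p, and 5 of these rose, while 4, 1 and 2 of the 16 were at 0 in control replicates 1 to 3 and 2 in knockout replicate 3. Of 10 beta cell markers 1 fell, with sums of 18758074 to 21862579 normalized counts in controls and 20965629 to 21294242 in knockouts. None of the 3 delta cell markers passed, with sums of 337650 to 445740 and 260444 to 424005. None of 6 endothelial markers passed, with sums of 71626 to 80670 and 74450 to 86629. Of 7 macrophage markers 2 rose, with sums of 10442 to 11546 and 10346 to 12275. Of 6 duct markers 2 rose, and their sums did not overlap, at 25474 to 28903 and 31084 to 35765. Of 10 immediate early and stress genes, which respond to handling, 1 rose, with sums of 52161 to 76968 and 72048 to 83837. No marker listed for these cell types was at 0 in any library except among the hepatocyte markers. The part of these cell types in the changes of Slc38a5, Slc38a4 and Slc7a5 was not tested.

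Set against the mean of the 8 alpha markers in the same library, the differences of the transporter genes shifted upwards. Slc38a5 minus the alpha mean was -2.22, -2.26 and -2.41 on the log2 scale in controls and -2.64, -2.37 and -2.57 in knockouts, a difference of -0.23 with overlapping groups (exact two-sided permutation p = 0.2). Slc7a5 minus the alpha mean was -0.46, -0.87 and -0.24 in controls and 0.26, 0.17 and 0.18 in knockouts, a difference of 0.72. For Slc38a4 the difference was 0.63 and for Slc7a2 it was 0.35. Because the alpha mean itself was lower in knockouts, this scale moves every gene up alike: over the 15811 genes with a mean of at least 50 normalized counts the median difference was 0.31, against 0.44 for the 10. Full separation of the groups was seen for 7 of the 10 genes and for 52.7% of the 15811, a share that leaves little to read from the 7. Each of the 7 had an exact permutation p of 0.1, the smallest that 3 against 3 can give, so this comparison cannot reach 0.05. The Slc7a8 difference of 0.26 (exact permutation p = 0.3) and the Slc38a1 difference of 0.55 (exact permutation p = 0.2) had overlapping groups, and fell to 0.11 without control replicate 2 and to 0.33 without knockout replicate 3, respectively. The Slc3a2 difference of 0.34 was 0.21 without control replicate 2. Several of these genes are also expressed outside alpha cells, so the ratio is not a level per alpha cell.

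**Figure D4:**
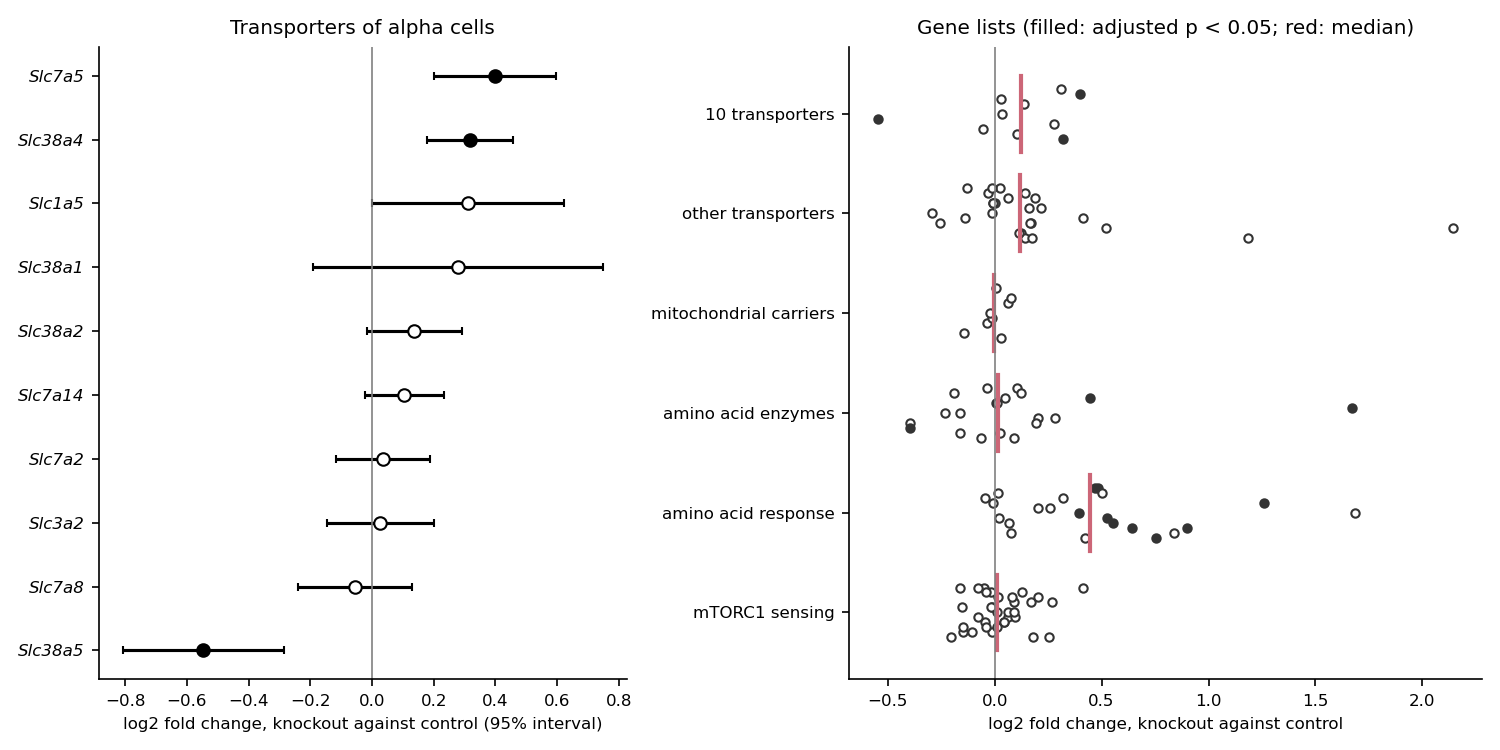
Left, log2 fold change of knockout against control for each of the 10 transporter genes with 95% confidence intervals; right, log2 fold changes of the genes of 6 lists with a mean of at least 50 normalized counts, filled where the DESeq2 adjusted p was under 0.05, with the list median in red. The amino acid response list has the highest median, 0.45.

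In the wider transporter families no gene passed in DESeq2 with its own size factors and the filter of 10 counts in total. Of 44 other amino acid transporter genes, 38 had enough counts to be fitted and 31 were given an adjusted p, of which 0 passed in DESeq2 and 0 in edgeR. Unadjusted p-values under 0.05 were found for 9 of the 38 in DESeq2, 8 higher and 1 lower, and for 7 in edgeR, against 9.03% and 9.48% of all genes. The median log2 fold change of the 26 with a mean of at least 50 normalized counts was 0.12. The nearest to the threshold were Slc1a4, the neutral amino acid exchanger ASCT1, at 1408 ± 169 and 1872 ± 224 normalized counts (SD, n = 3 each, log2 fold change 0.41, DESeq2 adjusted p = 0.0513), and Slc6a9, a glycine transporter, at 631 ± 115 and 906 ± 119 (0.52, adjusted p = 0.0594). Slc1a4 passed with TMM factors (adjusted p = 0.0455), without a filter on low counts (0.0481), with the stricter filter (0.0480) and without control replicate 1 (0.00996). Slc6a9 passed without control replicate 2 (0.00609) or knockout replicate 3 (0.0388). Slc38a3, the liver-rich relative of Slc38a5, chosen after its values were seen, had 216, 219 and 115 normalized counts in controls and 1604, 522 and 305 in knockouts (DESeq2 adjusted p = 0.106). Its values in the knockout libraries fell in the same order as their hepatocyte marker sums, and knockout replicate 3, with a sum within the control range, also lay above every control. The part of hepatocyte RNA in these values was not tested.

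Inside the cell, mitochondrial amino acid carriers and the mTORC1 sensing machinery did not pass. Of 10 carrier genes 0 passed, and none had an unadjusted p under 0.05 in DESeq2 or edgeR. Lowest in p among the 8 with a mean of at least 50 normalized counts were Slc25a38, a glycine carrier, at -0.14 on the log2 scale (DESeq2 adjusted p = 0.714), and Slc25a29, a carrier of basic amino acids, with 0.08 (adjusted p = 0.926). The Slc25a29 value was 0.021 without control replicate 2 and 0.16 without control replicate 3. Of 34 mTORC1 sensing genes 0 passed in DESeq2 and 0 in edgeR, while 6 and 7 had an unadjusted p under 0.05, against 9.03% and 9.48% of all genes, and the median log2 fold change was 0.01. Rragd, a Rag GTPase gene, had 7902 ± 674 and 9513 ± 409 normalized counts (SD, n = 3 each, log2 fold change 0.27, DESeq2 adjusted p = 0.0651). For Flcn, whose product acts on the Rag GTPases, it was 0.26 (adjusted p = 0.140). Rragd passed with TMM factors (0.0493) and without control replicate 3 (0.000313), and Flcn without control replicate 1 (0.000358).

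Of 21 genes of enzymes that use the transported amino acids, 3 passed the DESeq2 threshold, against 2.19% of all genes given an adjusted p. The 2 described here rose. In edgeR 0 of the 21 passed, against 0.115% of all genes. The median log2 fold change was 0.02 over the 20 of these 21 with a mean of at least 50 normalized counts. The liver-type glutaminase gene Gls2 rose from 119, 143 and 125 normalized counts in controls to 570, 390 and 272 in knockouts (log2 fold change 1.67 ± 0.27 SE, DESeq2 adjusted p = 2.56e-07). The rise of Gls2 was largest in knockout replicate 1, where hepatocyte markers were highest. Knockout replicate 3, with hepatocyte markers within the control range, also lay above every control, at 1.08 on the log2 scale when set alone against the controls. The part of hepatocyte RNA in the Gls2 values was not tested. Gpt2, a mitochondrial alanine transaminase gene, rose from 1460 ± 146 to 1988 ± 205 (SD, n = 3 each, 0.45, adjusted p = 0.0131). With edgeR neither passed (adjusted p = 0.0848 and 0.221), and without control replicate 2, knockout replicate 1 or knockout replicate 2 the DESeq2 adjusted p of Gpt2 was 0.122, 0.236 or 0.132.

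Among the genes of the amino acid response, which the kinase GCN2 and the factor ATF4 induce when amino acids are scarce, 9 of 23 given an adjusted p rose and 0 fell, against 1.53% and 0.657% of all genes. The median log2 fold change of the 22 with a mean of at least 50 normalized counts was 0.45. In edgeR 1 of them passed, Nupr1. Slc7a5 is itself a known ATF4 target. Asns, the asparagine synthetase gene, had 7307, 6542 and 8790 normalized counts in controls and 10522, 10621 and 10522 in knockouts (log2 fold change 0.48 ± 0.11 SE, DESeq2 adjusted p = 0.000904). Control replicate 3 was the highest control for Asns, as it was for Slc7a5, and the knockout libraries lay close together above it. Nupr1, which encodes a small stress-induced chromatin protein, rose from 2859 ± 459 to 6849 ± 920 (SD, n = 3 each, 1.26, adjusted p = 3.41e-18).

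The other named genes of this list act in serine and folate metabolism. Phgdh and Psat1, of the serine synthesis pathway, had log2 fold changes of 0.76 ± 0.15 and 0.52 ± 0.13 (SE, DESeq2 adjusted p = 0.000256 and 0.00469). Psph, the remaining enzyme gene of that pathway, had 547 ± 124 and 682 ± 88.8 normalized counts (SD, n = 3 each) and did not pass (adjusted p = 0.534). Mthfd2 and Shmt2, of mitochondrial folate metabolism, had 0.55 ± 0.12 and 0.40 ± 0.10 (adjusted p = 0.000578 and 0.00786). Psat1 lost its call without knockout replicate 1 or 3 (adjusted p = 0.0856 and 0.0608), and Shmt2 without any library other than control replicate 3 (0.0563 to 0.0953). Ddit4, Trib3 and Eif4ebp1, named because they complete the 9, had 0.64, 0.90 and 0.47 (adjusted p = 0.0119, 0.0290 and 0.0491). Atf4 itself was level, with 22598 ± 1420 and 22483 ± 1576 normalized counts (SD, n = 3 each, adjusted p = 0.991), and Slc3a2 and Slc38a2, also known targets of ATF4, did not pass. The number past the threshold was 4 without knockout replicate 1, 5 without control replicate 2, knockout replicate 2 or knockout replicate 3, and 1 when knockout replicate 3 alone was set against the controls. Mesenchymal and acinar sums were higher in all 3 knockout libraries, and hepatocyte sums in knockout replicates 1 and 2, as given above, and their part in these changes was not tested.

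**Figure D5:**
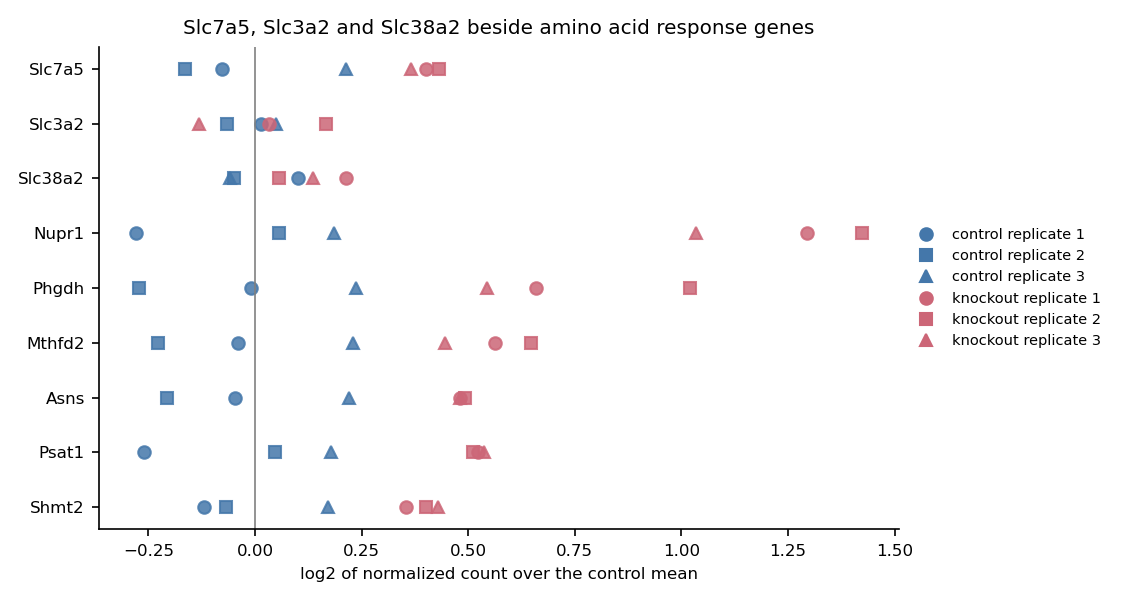
Slc7a5, Slc3a2, Slc38a2 and 6 amino acid response genes in each library, as log2 of the normalized count over the control mean. For Slc7a5 and the 6 response genes all 3 knockout libraries lie to the right of every control, while Slc3a2 and Slc38a2 overlap. The 6 were chosen by smallest p among those past the threshold, so their separation is no further result. Such separation held for 18.0% of the 15811 genes with a mean of at least 50 normalized counts.

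Response elements of the ATF4 type are shown for the only genes among the 6 named response genes whose windows held a match to TGATGNAA. The Asns site lies at chr6:7693218-7693239 and the Nupr1 site at chr7:126625566-126625587, both on the minus strand of GRCm38.p6, with the match in capitals. In Nupr1 the match is on the opposite strand, so it reads as the reverse complement.
Asns: agccacaTGATGAAActtcccg
Nupr1: ggccagaTTGCATCAgacaggg
None of the 6 transporter genes with a promoter entry had this motif in the 250 bases before a start, which says only that these letters are not in those windows.

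The genes whose normalized counts varied most like Slc7a2 over the 6 libraries were Slc25a27 (Pearson r = 0.994), Gm44423 (0.994) and Gm43300 (0.994). All 3 were lowest in control replicate 3, with Slc25a27 at 765 there and 1224 to 1431 normalized counts elsewhere. For Slc38a5 they were Gnb4 (r = 0.991), Cep83os (0.989) and 4930579K19Rik (0.988). Gnb4, a G protein subunit gene, had 1394 to 1531 normalized counts in controls and 1164 to 1333 in knockouts, and like Slc38a5 was highest in control replicate 2 within controls and in knockout replicate 2 within knockouts. Over only 6 libraries, 411 and 285 of 15811 genes had an r above 0.9 with Slc7a2 and Slc38a5, so these names describe likeness and no more.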

How the data were processed

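From polyA RNA of whole islets, raw counts of reads per gene were deposited by the authors as 1 table of 6 libraries, and 0 of its columns of sample values were left unused. Per the file name, reads were trimmed with cutadapt; the submitters' processing notes name FastQC, STAR, featureCounts, DESeq2 and mm10, and the strand setting is not given in the sources used here. All 55536 gene IDs equal those of GENCODE M21 (GRCm38), which gave coordinates and exon lengths. DESeq2 1.42.0 in R 4.3.3 was fitted with genotype as the only term, as the series' design text states, to genes with at least 10 counts in total. The alternatives were edgeR 4.0.16, TMM factors, other filters, the replicate number as a block and each library left out. Fits without knockout libraries 1 and 2, and on autosomal genes with Slc38a5, were chosen after the data were seen. Tested on simulated data, the fits recovered the size and sign of known changes, but the share of false calls lay above the nominal level with both tools, and was higher with DESeq2 than with edgeR. Exact permutation tests used scipy 1.17.1. No 2 libraries of a group agreed within sampling noise: chi-square over its degrees of freedom was 40.0 to 120.1 for the 6 pairs. Libraries held 101277200 to 110243918 counts.

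The members and gene lists were chosen with earlier results of these data known. Named were all 10 members, Klf4 and Gcg; of each pathway list, up to 6 genes past the threshold by smallest p with a mean of at least 50 normalized counts, or the 2 with the smallest p where fewer than 2 passed; and the 3 genes most correlated with Slc7a2 and with Slc38a5. Of 36 symbols listed for mTORC1 sensing, 34 were in the table. Of the genes this rule names, 1 is not reported here. Proteins were not analysed here. Promoter sequences are from RefSeq.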

Additional observations from a re-analysis of the deposited data

How the results depend on the processing

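The number of members past the threshold, 3, was 0 in edgeR, 0 to 3 when 1 library was left out and 0 with knockout replicate 3 alone against the controls, an alternative chosen after seeing the data in which the lone library is assumed to vary like the controls. Other transporters, 0 in DESeq2, numbered 1 with TMM factors, 1 without a filter, 1 under the stricter filter, 2 with the replicate block, 0 to 2 with 1 library left out and 1 with knockout replicate 3 alone. Enzyme genes, 3, numbered 0 in edgeR, 1 to 6 with 1 library left out and 0 with knockout replicate 3 alone. Amino acid response genes, 9, numbered 1 in edgeR and 1 with knockout replicate 3 alone, and 4 to 11 with 1 library left out. The mTORC1 sensing genes, 0, numbered 1 with TMM factors and 0 to 2 with 1 library left out. Fits that leave out libraries hold fewer samples; otherwise the cause was not tested. Over the members' fold changes, 120 of 140 results were unchanged in sign and in whether they passed, 15 no longer passed and 5 changed sign. All 15 fell on the 3 genes that had passed: 5 of 14 alternatives for Slc38a5, 3 of 14 for Slc38a4 and 7 of 14 for Slc7a5. For the other members an unchanged result is only one that again did not pass. The reversed values, none past the threshold, were -0.032 for Slc7a2 without control replicate 3 (range -0.032 to 0.075 with 1 library left out), 0.026 for Slc7a8 without knockout replicate 3 (-0.11 to 0.026), and for Slc3a2 -0.0049 and -0.045 without control replicate 2 or knockout replicate 2 (-0.045 to 0.10) and -0.13 with knockout replicate 3 alone, where Slc25a29 was -0.0066. Of 210 results of the other named genes, 171 were unchanged in this sense, 28 no longer passed, 10 newly passed and 1 changed sign. The replicate numbers did not pair the libraries, with correlations of deviations from -0.059 to 0.010 over same-numbered pairs; under the block Slc6a9 passed (adjusted p = 0.0221), and Slc38a5, Slc38a4 and Slc7a5 still passed, at -0.55, 0.32 and 0.41. Differences from the alpha marker mean moved by less than the spread between libraries under every alternative tried, though those of Slc7a8 and Slc3a2 were much smaller (0.11 and 0.21) without control replicate 2 and that of Slc38a1 (0.33) without knockout replicate 3. Among the members, counts were lowest for Slc38a1.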
